A study of Mus musculus with 4 samples.

Results

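The Cdk inhibitor genes of the mouse were followed here in E14, a mouse embryonic stem (ES) cell line, after RNAi against Mtf2. All array features named for Cdkn2a, Cdkn2b, Cdkn2c, Cdkn2d, Cdkn1a, Cdkn1b or Cdkn1c were taken, every repeat spot included. They amount to 7 of 19087 genes on the array and 37 of 45220 features: 10 each for Cdkn2a and Cdkn1a, 12 for Cdkn1b, 2 for Cdkn2c and 1 each for Cdkn2b, Cdkn2d and Cdkn1c. The genes were chosen by name, but with earlier results on the difference between the arms in view, so these differences are given as a description and support nothing by themselves.

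The 4 one-colour arrays carry 1 plasmid each, all transfected into E14 cells that were then selected with puromycin (1 mg/ml as labelled) and harvested after 2 days in the drug. The Mtf2 RNAi arm holds pSuper with Mtf2 hairpin 1 and pSuper with Mtf2 hairpin 3. The control arm holds the empty pSuper vector and pSuper with a hairpin against luciferase, a gene mouse cells lack. No plasmid has a second array, so 2 arrays of an arm also differ by plasmid, and the p-values reflect nothing beyond the variation among these 4 arrays, part of which may be technical. In such bulk samples, fewer cells that express a gene and less RNA per cell cannot be told apart.

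Cdk inhibitors are small proteins that hold the cell cycle in check. The Ink4 proteins bind Cdk4 and Cdk6 and keep cyclin D from activating them, whereas the Cip/Kip proteins bind a wider range of cyclin and Cdk complexes, among them cyclin E with Cdk2. Cdkn2a is unusual in that it encodes 2 unrelated proteins from separate first exons: p16Ink4a, an Ink4 inhibitor, and p19Arf, which stabilises p53 by binding Mdm2. The Ink4a/Arf locus is a classical target of Polycomb repression, and Mtf2 joins the Polycomb complex PRC2, the writer of the histone mark H3K27me3, as an accessory subunit. ES cells are known for a short G1 phase and low levels of several of these inhibitors.

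Values are deposited intensities on a linear scale, scaled so that each array has the same 75th percentile (22.98 units). Differences are on the log2 scale after values under 1 unit were raised to 1, and they are always Mtf2 RNAi minus control unless stated. A gene with several features is represented by their median. The standard error (SE) is that of a limma fit across all genes or features.

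Mtf2 itself, the targeted gene, read 142.01 units with hairpin 1 and 146.43 with hairpin 3, against 194.22 with the empty vector and 293.32 with luciferase RNAi, as medians of 4 features. Both hairpin arrays lay below both controls, at -0.73 log2 (SE 0.27), or 0.604 of control. On 3 of the 4 features the arms were separate in that direction, and on the brightest one they overlapped. The label of the cells was checked with marker genes. All 10 measured ES cell markers stood above the median gene, against 2 of 9 fibroblast and feeder markers, 1 of 6 primitive endoderm markers and 2 of 6 trophoblast markers. The summed level of the fibroblast markers was 60.5 and 58.6 units on the hairpin arrays, against 87.3 and 63.8 on the vector and luciferase arrays, and that of the primitive endoderm markers 50 and 33.2, against 26.4 and 32.8. For the trophoblast markers it was 178.5 and 133.4 units, against 161.4 and 241.4. Of the fibroblast list, 1 of 10 markers was at the floor on all 4 arrays, and of the other lists none. The brightest markers of these lists were Pdgfrb (31.78 to 57.62 units over the 4 arrays), Lama1 (13.99 to 36.70) and Tfap2c (118.76 to 221.12), named after their values were seen. The ES cell markers summed to 13427.5 and 13963.5 units on the hairpin arrays, against 10429 and 10619.1 on the vector and luciferase arrays. Of the 10, 9 read higher with Mtf2 RNAi (median 0.28 log2), against 49.6% of all genes. Both hairpins lay above both controls for Klf4 (1.02), Nanog (0.86) and Klf2 (0.30), and below both for Utf1 (-0.40). Over all genes the shares were 14.9% above and 17.9% below. Of the 10 markers 0 passed limma's test, and these 4 were named after their values were seen. The part of such cells, or of the difference in ES cell markers, in the results below was not tested. The empty-vector array stood apart from the others: its log2 levels correlated with theirs at r of 0.945 to 0.949, whereas the other arrays correlated with each other at 0.976 to 0.979. It also has a region of low readings along an edge, with 1644 low positions, 1638 of them in columns 70 to 85 of the array, against 0 to 2 low positions on each of the other arrays.

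The main comparison asked which inhibitor transcripts differ between cells with a plasmid against Mtf2 and control cells. No feature on the array passed limma's test after Benjamini-Hochberg adjustment (0 of 35102 tested, 0%), and neither did any of the 36 member features tested. At an unadjusted p under 0.05, limma listed 1467 features (4.18%) over the whole array. Among the member features there were 7 such, 6 of Cdkn2a and 1 of Cdkn1b, and nothing is read from this count because the members were chosen with these differences known. The gene-level fit likewise called 0 of 16505 genes (0%, with 669 or 4.05% at an unadjusted p under 0.05) and 0 of the 7 members, of which Cdkn2a alone had an unadjusted p under 0.05. By gene medians, 4 members read higher and 3 lower with Mtf2 RNAi. Over all genes, 49.6% read higher and 50.4% lower. Both hairpins lay above both controls for Cdkn2a, Cdkn2c and Cdkn1c, and below both for Cdkn1a. Over all genes the shares were 14.9% above and 17.9% below. The median difference of the 7 members was 0.52, against 0.00 (-0.0038) over all genes. The 4 higher members include Cdkn2d, whose reading on the empty-vector array lies at a low position. With that reading set to missing, which leaves the luciferase array as its only control, Cdkn2d read -0.21. Both the split and the median of the members therefore depend on this 1 reading.

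**Figure D1:**
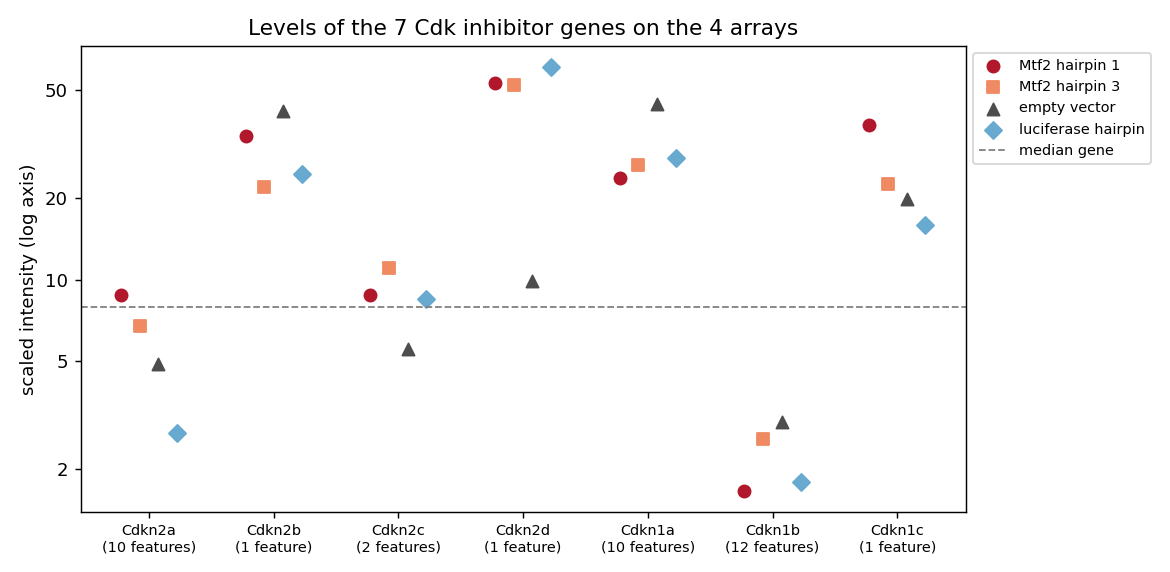
Scaled intensity (log axis) of the 7 inhibitor genes on each array, as the median over features, with Mtf2 hairpins 1 and 3 left of the empty vector and the luciferase hairpin. The dashed line is the median gene (7.95 units); heights of different genes are not comparable because their probes differ. The empty-vector array is the highest of 4 for Cdkn2b, Cdkn1a and Cdkn1b, and the lowest of 4 for Cdkn2c and Cdkn2d.

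Cdkn2a, the Ink4a/Arf gene, showed the widest difference among the 3 members spotted 10 or 12 times. Its 10 features had a median of 8.81 units with hairpin 1 and 6.77 with hairpin 3, against 4.91 with the empty vector and 2.72 with luciferase RNAi. The order was therefore hairpin 1, hairpin 3, empty vector, luciferase hairpin, and the arms did not overlap. The difference was 1.08 log2 (SE 0.40), a 2.11-fold higher median with Mtf2 RNAi, with a limma adjusted p of 0.881 over all genes. Its size depends on how dim values are treated: it was 0.80 log2 with a floor of 4 units and 0.42 on the log2(value + 8) scale with no floor. A difference that large or larger in the higher direction was read for 408 of 16505 genes (2.47%).

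The single spots followed the median closely. All 10 features read higher with Mtf2 RNAi, by 0.51 to 1.58 log2, and on 9 of them both hairpins lay above both controls. Over all tested features, 14.7% had both hairpins above both controls. Both hairpins lay above the luciferase array on all 10 features and above the empty-vector array on 9. The exception was feature 23361, which read 4.86 and 4.33 units with hairpins 1 and 3, against 4.57 in empty-vector cells and 2.19 in luciferase RNAi cells. The widest difference was that of feature 33914, at 9.31 and 5.96 units with hairpins 1 and 3, against 3.29 and 1.89 with the empty vector and luciferase RNAi. On the feature with the highest mean log2 level, number 11147, the levels were 10.19 and 9.76 with the hairpins, against 5.37 and 5.10 in the controls. The arms thus lay apart on each of the last 2 features, with the hairpins nearly level on feature 11147.

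Within 1 array the spots of Cdkn2a ranged from 4.86 to 12.91 units with hairpin 1 and from 4.33 to 9.76 with hairpin 3, against 3.05 to 6.99 with the empty vector and 1.61 to 5.51 with the luciferase hairpin. The SD over the 10 spots was 0.432 and 0.344 log2 with hairpins 1 and 3, against 0.425 and 0.607 log2 with the empty vector and luciferase RNAi. Spots share 1 RNA sample and are not replicates of the treatment, so this spread does not hold the variation between samples. It holds the error of reading a spot and, where the probes differ, differences between probes. The probe sequences are not given. The controls also differed from each other: the luciferase array read -0.85 log2 relative to the empty vector, and lower on 9 of 10 features. Against the empty vector alone the difference was 0.84 with hairpin 1 and 0.46 with hairpin 3, and against the luciferase hairpin alone 1.70 and 1.32. With the empty-vector array left out, the difference between arms was 1.51 (SE 0.31), and with the luciferase array left out 0.65 (SE 0.31), so its size depends on the control. The features lie in columns 2 to 84 of the array. On the empty-vector array their neighbours deviated from the median of the arrays by at most 0.281 log2, and none of the 10 lies at a low position.

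**Figure D2:**
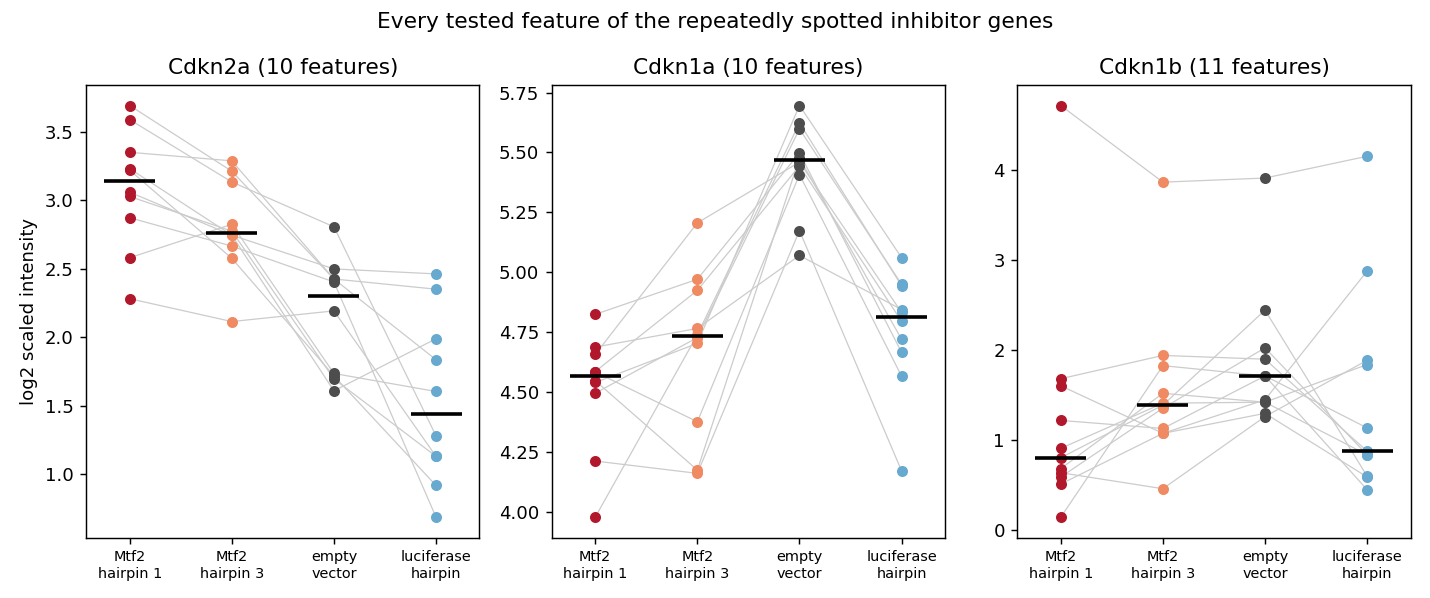
Log2 scaled intensity of every tested feature of Cdkn2a, Cdkn1a and Cdkn1b on the 4 arrays; a point is 1 feature, grey lines join a feature across arrays and black bars are medians. The vertical scales differ between panels. Cdkn2a reads higher on both Mtf2 hairpin arrays on 9 of 10 features, whereas all 10 features of Cdkn1a are highest with the empty vector.

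Repeat spotting allows Cdkn2a to be set beside the other genes on the array with at least 8 features, of which 182 were measured. This view was chosen after the values were seen, and Cdkn2a with its difference known, so its rank is only a description. Cdkn2a had the largest gene difference of the 182, followed by Actb, cytoskeletal actin, at 1.05. These were also the only genes with at least 90% of their features in separate arms in the higher direction (2 of 182, 1.1%), at 90% for Cdkn2a and 100% for Actb.

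**Figure D3:**
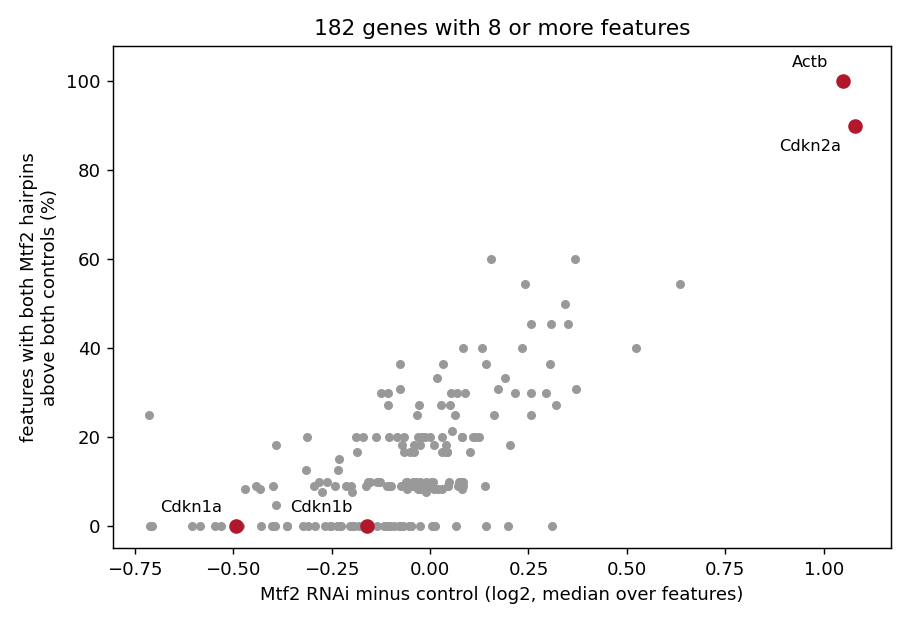
Share of features with both Mtf2 hairpins above both controls (percent) against the gene difference between Mtf2 RNAi and control (log2), for the 182 genes with 8 or more features; a point is 1 gene. Cdkn2a at 90% and Actb at 100% stand apart at the upper right, and Cdkn1a and Cdkn1b are at 0%.

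The features of Cdkn2a do not say which of its products was measured. The annotation pairs all 10 with 1 transcript, the place of the probe within it is not given in the sources used here, and both products share their later exons. The start regions of both transcripts are shown because they differ in the base pair step that Polycomb targets in ES cells are rich in, CG. They run from 250 bases before to 50 after the start, from RefSeq on GRCm38.p6, minus strand, with each CG in capitals. The upstream one is chr4:89294570-89294869, where the Arf transcript begins, and the downstream one is chr4:89282143-89282442, where the Ink4a transcript begins.
Cdkn2a, upstream start: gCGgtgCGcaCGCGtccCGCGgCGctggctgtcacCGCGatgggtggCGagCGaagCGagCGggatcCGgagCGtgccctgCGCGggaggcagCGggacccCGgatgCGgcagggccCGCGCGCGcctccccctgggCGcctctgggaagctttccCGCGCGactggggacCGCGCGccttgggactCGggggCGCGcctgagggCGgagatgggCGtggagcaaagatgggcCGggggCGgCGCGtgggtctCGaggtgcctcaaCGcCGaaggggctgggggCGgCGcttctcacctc
Cdkn2a, downstream start: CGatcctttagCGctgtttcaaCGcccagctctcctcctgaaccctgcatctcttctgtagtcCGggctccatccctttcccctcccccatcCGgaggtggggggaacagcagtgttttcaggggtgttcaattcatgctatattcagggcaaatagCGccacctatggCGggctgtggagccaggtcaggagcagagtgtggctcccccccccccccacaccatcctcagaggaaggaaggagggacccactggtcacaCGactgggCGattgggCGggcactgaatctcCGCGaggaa
The upstream region holds 45 CG steps, at the 98.2 percentile of the 32851 start regions of that length in the table, whose median is 7. The downstream region holds 12, at the 61.3 percentile, and has a GC content of 60.3% against 77.0% upstream.

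Cdkn2b encodes p15Ink4b, the Ink4 inhibitor next to Cdkn2a on chromosome 4, and did not share its pattern. Its only feature read 33.93 units with hairpin 1 and 21.93 with hairpin 3, against 41.73 with the empty vector and 24.59 with luciferase RNAi. The arms overlapped, with hairpin 3 lowest and the empty vector highest, and the difference was -0.23 log2 (SE 0.38). Without the empty-vector array it was 0.15. The distance between the hairpins, at -0.63 log2 for hairpin 3 minus hairpin 1, was larger than the distance between the arms. The start region of Cdkn2b, chr4:89310983-89311282 on the minus strand of GRCm38.p6, is shown for comparison with its neighbour, again with CG in capitals.
Cdkn2b: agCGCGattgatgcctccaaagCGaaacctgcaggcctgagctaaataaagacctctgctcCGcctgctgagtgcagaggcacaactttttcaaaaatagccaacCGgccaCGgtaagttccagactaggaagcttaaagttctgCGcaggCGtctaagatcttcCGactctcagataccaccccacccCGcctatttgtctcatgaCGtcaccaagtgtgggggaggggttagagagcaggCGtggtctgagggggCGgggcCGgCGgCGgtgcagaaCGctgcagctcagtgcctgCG
It holds 18 CG steps, at the 71.1 percentile. The genes on either side of the pair were measured too. Mtap, which recovers methionine from a polyamine by-product and lies next to Cdkn2a, read 62.54 and 50.89 units with hairpins 1 and 3, against 73.19 and 69.01 in the controls, a difference of -0.33 (SE 0.22). Dmrta1, next to Cdkn2b, was at the floor on all 4 arrays. Elavl2, a neuronal RNA-binding protein gene farther along the chromosome, read 26.12 and 33.20 units against 39.10 and 39.72, a difference of -0.42 (SE 0.23). In both Mtap and Elavl2 the hairpins lay below the controls, opposite to Cdkn2a, and neither passed the test.

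Cdkn2c encodes p18Ink4c, the Ink4 inhibitor of many dividing progenitor cells. Feature 4737 read 12.35 units with hairpin 1 and 12.29 with hairpin 3, against 9.36 with the empty vector and 9.71 with luciferase RNAi, with no overlap of the arms. Feature 3731 read 6.24 and 9.93 units with the hairpins, against 3.31 and 7.41 with the empty vector and luciferase RNAi, and here the arms overlapped. The gene difference was 0.52 log2 (SE 0.34, 1.43-fold), and it was 0.22 (SE 0.28) without the empty-vector array and 0.82 (SE 0.29) without the luciferase array.

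Cdkn2d encodes p19Ink4d, a further Ink4 inhibitor. Its only feature read 53.30 units with hairpin 1 and 52.07 with hairpin 3, against 9.86 with the empty vector and 60.80 with luciferase RNAi. The empty-vector array was far below the other 3, which lay close together. The feature lies in column 85 of the array, where on the empty-vector array the neighbours deviated by -2.32 log2 from the median of the arrays. The difference of 1.11 log2 (SE 0.85) therefore stands beside a defective position, and it was -0.21 with that reading set to missing, which leaves the luciferase array as the only control. The values on the 3 sound readings differed by at most 0.22 log2.

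Cdkn1a encodes p21Cip1, the Cip/Kip inhibitor induced by p53. Its 10 features had a median of 23.67 units with hairpin 1 and 26.59 with hairpin 3, against 44.27 with the empty vector and 28.12 with luciferase RNAi. The arms did not overlap, but the luciferase array lay beside the hairpins and the empty-vector array apart from all 3. The difference was -0.49 log2 (SE 0.30, 0.711 of control, limma adjusted p = 0.881). It was -0.16 (SE 0.18) without the empty-vector array and -0.82 (SE 0.17) without the luciferase array.

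Every spot of Cdkn1a was highest on the empty-vector array. Its levels ran from 15.74 to 28.32 units with hairpin 1 and from 17.87 to 36.91 with hairpin 3, against 33.59 to 51.85 with the empty vector and 18.00 to 33.38 with the luciferase hairpin. The empty vector is the highest of the 4 arrays for 31.5% of all tested features. Among the 182 genes with at least 8 features, Cdkn1a was the only one with the empty vector highest on every feature (0.549%), a count made after the values were seen. All 10 features lay below the empty vector with both hairpins, and 5 lay below the luciferase array with both. On these 5 both hairpins thus lay below both controls, which held for 17.5% of all tested features. The spots of an array share 1 RNA sample and are not replicates of the treatment. The luciferase array read -0.65 log2 relative to the empty vector. The luciferase array lay at least 0.5 log2 below the empty vector for 16.5% of all genes. On the empty-vector array the neighbours of the 10 features deviated by -0.072 to 0.299 log2, so none lies at a defective position. The spots were tight, with an SD of 0.245 and 0.342 log2 with hairpins 1 and 3, against 0.194 and 0.252 log2 with the empty vector and luciferase RNAi. The hairpins differed by 0.17 log2 (hairpin 3 minus hairpin 1), and hairpin 1 lay above hairpin 3 on 3 of 10 features.

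Cdkn1a has 2 starts in the RefSeq table of GRCm38.p6, both on the plus strand, chr17:29090729-29091028 upstream and chr17:29093519-29093818 downstream. They are shown because they differ in CG content and in a p53 motif, with CG in capitals.
Cdkn1a, upstream start: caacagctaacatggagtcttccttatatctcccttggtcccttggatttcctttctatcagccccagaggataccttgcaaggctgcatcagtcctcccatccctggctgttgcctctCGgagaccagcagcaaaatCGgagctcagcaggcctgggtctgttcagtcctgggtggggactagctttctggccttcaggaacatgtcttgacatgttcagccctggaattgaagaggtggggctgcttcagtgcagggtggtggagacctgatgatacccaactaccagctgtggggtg
Cdkn1a, downstream start: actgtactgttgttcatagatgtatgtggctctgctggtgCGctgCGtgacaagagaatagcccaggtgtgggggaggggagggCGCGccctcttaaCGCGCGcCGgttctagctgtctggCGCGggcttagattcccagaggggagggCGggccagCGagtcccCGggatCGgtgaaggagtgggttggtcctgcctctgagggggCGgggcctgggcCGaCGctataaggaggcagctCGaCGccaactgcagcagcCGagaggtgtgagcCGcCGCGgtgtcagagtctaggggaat
The upstream region holds 2 CG steps and the downstream one 23, at the 18.7 and 79.3 percentiles. The core of the p53 motif was searched as CATGNNNNNNCATG, which reads the same on both strands. It occurs in 234 of the 32851 start regions (0.712%), and among the 9 regions of the 6 members in the table only in the upstream one of Cdkn1a. It lies 51 to 32 bases before that start, shown here with the CATG cores in capitals.
Cdkn1a, p53 motif core: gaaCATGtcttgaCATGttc
The GC box GGGCGG, searched on both strands, occurs in 7 of the 9 member regions and in 35.7% of all regions. A match describes the sequence and is not evidence of binding.

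Cdkn1b encodes p27Kip1, the Cip/Kip inhibitor that accumulates in resting cells and is removed by the ubiquitin ligase Skp2. Its 12 features disagreed in level. Feature 491, annotated to a transcript of its own, read 26.31 units with hairpin 1 and 14.57 with hairpin 3, against 15.04 with the empty vector and 17.79 with luciferase RNAi. The other 11 are annotated to 1 common transcript, and 1 of them, feature 20624, was at the floor on all 4 arrays. The remaining 10 read 1.10 to 3.20 units with hairpin 1 and 1.37 to 3.83 with hairpin 3, against 2.39 to 5.43 with the empty vector and 1.36 to 7.34 with the luciferase hairpin. These features were thus close to the floor of 1 unit, and the arms overlapped. The gene medians were 1.67 and 2.58 units with hairpins 1 and 3, against 2.98 and 1.80 with the empty vector and luciferase RNAi, a difference of -0.16 log2 (SE 0.38). Of the 11 features tested, 5 read higher and 6 lower with Mtf2 RNAi, from -1.37 to 0.43 log2. The hairpins lay below both controls on 2 of them, features 2271 and 7658, and above both on none. Over all tested features, both hairpins lay below both controls on 17.5% and above both on 14.7%. Feature 491, the brightest, gave 0.26. No direction can be given for Cdkn1b.

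Cdkn1c encodes p57Kip2, the imprinted Cip/Kip inhibitor expressed from the maternal copy. Its only feature read 37.22 units with hairpin 1 and 22.47 with hairpin 3, against 19.85 with the empty vector and 15.96 with luciferase RNAi. The arms did not overlap, but hairpin 3 lay close to the empty vector, only 0.18 log2 above it. The difference was 0.70 log2 (SE 0.33, 1.62-fold), and it was 1.06 without hairpin 3 and 0.34 without hairpin 1. The hairpins themselves differed by -0.73 log2 (hairpin 3 minus hairpin 1), more than the arms. Over all genes, 5.65% differed by at least 1 log2 unit between the hairpin arrays and 8.8% between the control arrays, and among the members only Cdkn2d at its defective position did so, between the controls.

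**Figure D4:**
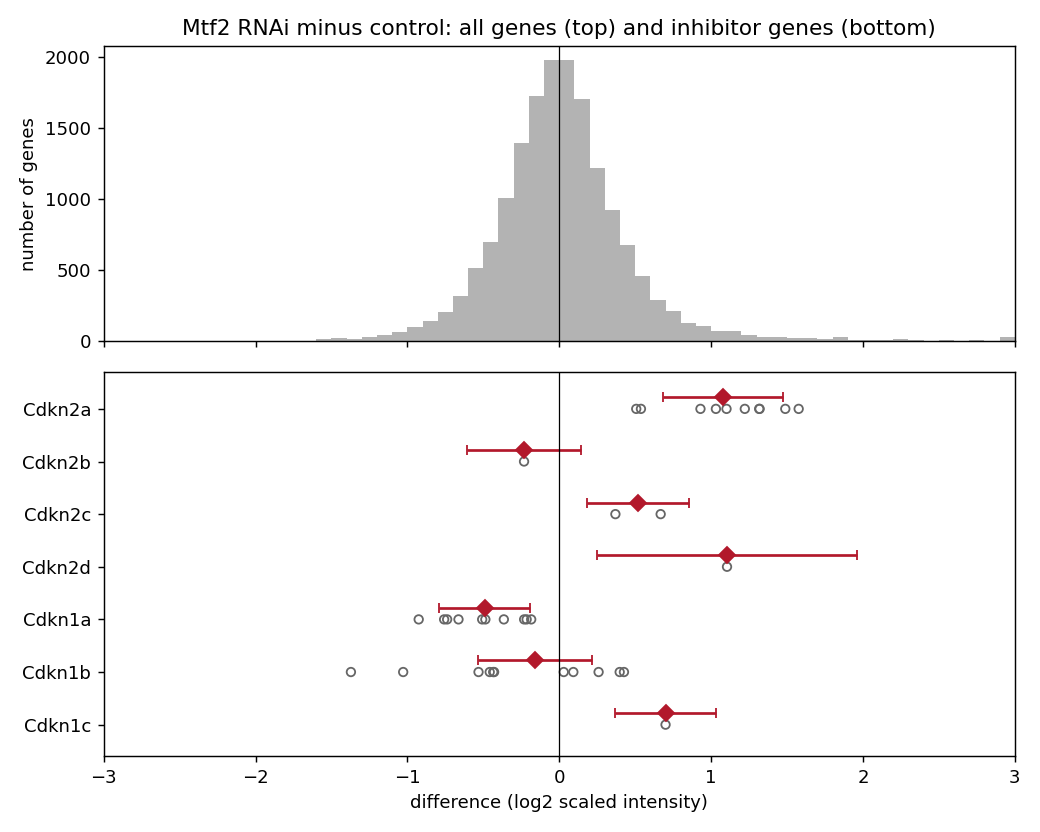
Mtf2 RNAi minus control in log2 scaled intensity: number of genes in bins of 0.1 (top, with values beyond 3 in the end bins) and the inhibitor genes (bottom). Open circles are tested features and red diamonds the gene medians with the SE of the limma fit; all circles of Cdkn2a lie right of 0 and all of Cdkn1a left of 0, while those of Cdkn1b lie on both sides.

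The imprinted cluster around Cdkn1c was measured on 10 genes, of which 7 read higher and 3 lower (median 0.27), with arms apart in 1 and 2 of them. None passed the test. Kcnq1, a potassium channel gene whose intron carries the imprinting centre, read 7.58 and 5.96 units with hairpins 1 and 3, against 2.72 and 3.78 with the empty vector and luciferase RNAi, a difference of 1.07 (SE 0.32). The arms were apart, as for Cdkn1c. Slc22a18, a transporter gene next to Cdkn1c, read 11.57 and 10.36 units against 18.86 and 12.45, a difference of -0.49 (SE 0.31). Tnfrsf23, a decoy receptor gene, was at the floor with both hairpins, against 2.23 and 1.55 units in the controls. The 2 largest differences of the cluster, those of Osbpl5 (1.93, SE 1.34) and Phlda2 (1.38, SE 0.98), come from low readings of the empty vector alone, at 1.70 and 9.08 units. They were named after their values were seen.

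The partners of the inhibitors showed no common direction. Among cyclins and Cdks, 7 of 15 read higher and 8 lower with Mtf2 RNAi (median -0.03), with both hairpins above both controls for 2 and below them for 3. Ccnd2, a D-type cyclin that the Ink4 proteins oppose, read 9.27 and 10.07 units with hairpins 1 and 3, against 5.89 and 6.24 in the controls, a difference of 0.67 (SE 0.26). Cdk6, a direct Ink4 partner, read 5.35 and 5.18 units with hairpins 1 and 3, against 12.33 with the empty vector and 7.49 with luciferase RNAi, a difference of -0.87 (SE 0.35). Cdk7, the Cdk-activating kinase, read -0.61 (SE 0.32). The arms of all 3 genes, which were named for the smallest p of their list, were apart, in opposite directions for Ccnd2 and the kinases.

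Pocket proteins and E2F factors, the targets of the cyclin D and E kinases, split into 3 higher and 10 lower (median -0.08), with values from -0.40 to 0.23. E2f5 read -0.40 (SE 0.29), E2f8 -0.25 (SE 0.29) and Rbl2, the pocket protein p130, 0.23 (SE 0.27). Each of these differences was less than 1.5 times its SE. In the p53 branch downstream of Arf, 6 of 10 genes read higher and 4 lower (median 0.04), 2 in separate arms each way. Trp53inp1, a p53-induced stress gene, read 290.91 and 230.31 units with hairpins 1 and 3, against 514.69 with the empty vector and 314.36 with luciferase RNAi, a difference of -0.64 (SE 0.32). Its highest level, like that of Cdkn1a, was on the empty-vector array, which was the highest for 31.9% of all genes. Pmaip1, the apoptosis gene Noxa, read 0.33 (SE 0.21) and Mdm2, the ubiquitin ligase of p53, 0.26 (SE 0.23). Both had their lowest level on the empty-vector array.

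Genes of p27 degradation and of the Cdk phosphorylation switch had 7 of 10 members higher and 3 lower (median 0.22), 4 and 2 of them in separate arms. Cdc25b, a phosphatase that activates Cdk1, read 37.77 and 40.93 units with hairpins 1 and 3, against 67.92 and 57.29 in the controls, a difference of -0.67 (SE 0.22). Both hairpins were close together and below both controls. Rbx1, the RING subunit of the ligase that Skp2 belongs to, read 0.48 (SE 0.24), and Wee1, the kinase that restrains Cdk1, 0.52 (SE 0.28). The 9 other genes named for Cdk binding or growth arrest had 2 higher and 7 lower (median -0.28), with both hairpins below both controls for 5 and above them for none. Cdkn2aipnl read -0.37 (SE 0.24), Cdk5rap3 -0.31 (SE 0.20) and the stress gene Gadd45b -0.35 (SE 0.25).

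Known regulators of the Ink4a/Arf locus, Polycomb subunits included, had 11 of 21 members higher and 10 lower (median 0.05), 5 and 1 of them in separate arms. Dmtf1, an activator of the Arf promoter, read 54.12 and 46.17 units with hairpins 1 and 3, against 36.86 and 35.14 in the controls, a difference of 0.47 (SE 0.22). Tbx3, a repressor of Arf, read 36.47 and 58.03 units against 32.35 and 33.63, a difference of 0.48 (SE 0.29). Kdm2b, which brings a variant PRC1 to CG-rich DNA, read 18.58 and 23.53 units against 27.52 and 29.01, a difference of -0.43 (SE 0.24). No gene of these lists passed limma's test (0 called in each list), and arms that do not overlap were read for 14.9% (higher) and 17.9% (lower) of all genes.

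**Figure D5:**
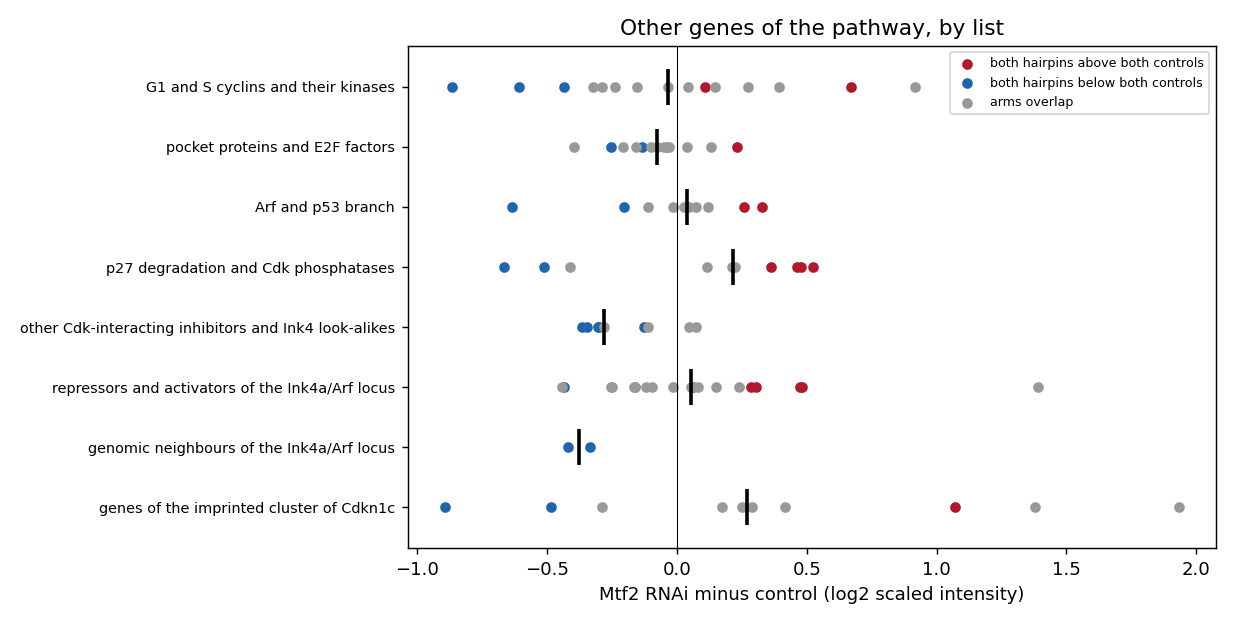
Mtf2 RNAi minus control (log2 scaled intensity) for the other genes of the pathway; a point is 1 gene, coloured by whether both hairpins lay above both controls, below both, or overlapped, and black bars are medians. The medians run from -0.38 for the 2 neighbours of the Ink4a/Arf locus to 0.27 for the imprinted cluster of Cdkn1c.

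Genes with the most similar profile over the 4 arrays were looked up for members above the median gene whose arrays spanned at least 0.5 log2, by the root mean square distance of array-centred log2 levels among 8252 genes. Cdkn2a and Cdkn1b lay below the median gene and were not looked up. A profile has only 4 values, so with 8252 genes to choose from a small distance is easily found. The matches describe these arrays only, and shared regulation was not tested. The nearest to Cdkn1a was Myl4 (distance 0.0247 log2), followed by Mrpl51 and Anapc13. The nearest to Cdkn1c was Glud1 (0.0332), followed by Ube3c and Kpna4. The nearest to Cdkn2c was Rab10os (0.0201), followed by Utp11 and 2700062C07Rik, and the nearest to Cdkn2b was Tasp1 (0.0281), followed by Prlhr and Phf23. The nearest to Cdkn2d were Ppm1d (0.0601), Chkb and Lsm12, which share its low reading on the empty-vector array. For Cdkn2d that reading lies at a defective position, so these matches rest on it and do not describe a pattern of expression.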

How the data were processed

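The deposited intensity values of 4 arrays, 1 per plasmid, were used. Per the labels' protocols, 1 ug of RNA was turned into Cy3 cRNA (Agilent Quick-Amp, one colour). How the authors scanned, background-corrected and normalized is not given in the sources used; negative values show that a background was subtracted. Gene names come from the platform annotation (33709 listed, 56 with several genes left unnamed). Arrays were scaled to a common 75th percentile, floored at 1 unit and log2-transformed. Of 45220 features, 10118 at the floor on all arrays were left out, 1 of them a member's. The arms were compared with limma 3.58.1 in R 4.3.3 (eBayes with an intensity trend), with Benjamini-Hochberg adjustment over 35102 features or 16505 genes and a threshold of 0.05. The number of arrays limits the precision.

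A position counted as defective where the features around it, in a square of 7 by 7, deviated by a median of over 0.5 log2 from the 4-array median; numbering was read as 532 rows of 85 features each. Members and lists were chosen with earlier results of these data known. By rule, all members and Mtf2 are named, and of each list up to 3 genes with the smallest p; others are said to be named after their values were seen. Genes of the lists that are not counted were not analysed here. Alternatives covered scaling, floor, filter, variance model, gene summary, defective positions and leaving out each array.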

Additional observations from a re-analysis of the deposited data

How the results depend on the processing

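The differences of Cdkn2a, Cdkn2c, Cdkn1a and Cdkn1c kept their sign under all 14 alternatives tried for each, and no member passed the threshold under any of them (limma adjusted p of 0.271 or above). Changes of processing gave 0.42 to 1.13 log2 for Cdkn2a, 0.24 to 0.54 for Cdkn2c, -0.51 to -0.21 for Cdkn1a and 0.52 to 0.72 for Cdkn1c. The lowest size for Cdkn2a came from adding 8 units in place of a floor, which by construction compresses dim values. Leaving out each array gave 0.65 to 1.51 for Cdkn2a, 0.22 to 0.82 for Cdkn2c, -0.82 to -0.16 for Cdkn1a and 0.34 to 1.06 for Cdkn1c. A lone array is assumed to vary like the other arm.

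The sign turned for Cdkn2b at 0.15 without the empty-vector array and 0.08 without hairpin 3 (range -0.61 to 0.15 over the arrays left out). It turned for Cdkn2d at -0.21, both without the empty-vector array and with defective positions set to missing (range -0.21 to 2.42). It turned for Cdkn1b at 0.20 without the empty-vector array, at 0.16 without hairpin 1 (range -0.52 to 0.20), and at 0.26 with features below the median level left out or with the brightest feature, both of which rest on feature 491. The number of features called was 0 under all alternatives but 1: with no feature left out it was 36, all of them at the floor on both arrays of an arm and none of a member. The number of genes called was 0 throughout. Counts of spots were added after seeing the data: under the scaling and floor settings, with defective positions set to missing and with each array left out, 9 to 10 of 10 features of Cdkn2a had both hairpins, or the one kept, above the controls kept. For Cdkn1a 5 to 10 lay below, with 10 without the luciferase array. These counts were not made for the other filters, the variance model or the gene summaries. No paired analysis was possible because the plasmids of the arms share no replicate numbers that pair them.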
